A study of Mus musculus with 7 samples.

Results

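The H3K4 methyltransferase enzymes are the 6 proteins that build the mammalian COMPASS complexes, which add methyl groups to lysine 4 of histone H3. Their genes are Setd1a, Setd1b, Kmt2a (also called Mll1), Kmt2b (Mll2), Kmt2c (Mll3) and Kmt2d (Mll4). The deposited table held 33437 oocyte transcripts and was searched for rows naming 1 of these genes on the row's own strand. This gave 1 row each for 5 of the 6 genes. No row named Setd1b, because the row that spans it carried the name of Gm26745, a long non-coding RNA gene on the opposite strand. The Setd1b row was therefore taken by position, a choice made after the table was seen, since its span matched the annotated gene. Of the 6 rows, 5 passed the filter on low values of at least 1 RPM (mapped reads scaled to a common library total) in at least 3 libraries, as did 18179 of all transcripts.

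Single germinal vesicle (GV) oocytes, fully grown and still in meiotic arrest, were taken from 21-day-old C57BL6 females, all homozygous for a floxed Setd1b allele. In 4 libraries the female also carried Gdf9-Cre, a recombinase under an oocyte promoter that acts on floxed sequence once follicles begin to grow (Setd1b cKO). In 3 libraries she did not (Setd1b WT). The methods of the study also count heterozygous, Cre-positive females as WT, and the labels were followed here. Each library was made from 1 oocyte. Which oocytes came from the same female is not in the labels, so that the p-values measure the spread between these oocytes only. Values are shares of each library's reads, and the amount of RNA in an oocyte was not measured.

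The 6 enzymes form pairs of close relatives, SETD1A with SETD1B, KMT2A with KMT2B and KMT2C with KMT2D. All share the core subunits WDR5, RBBP5, ASH2L and DPY30. The SETD1 enzymes work with CXXC1 at active promoters, KMT2A and KMT2B carry their own CXXC domain that binds unmethylated CpG, and KMT2C and KMT2D are best known for monomethylation at enhancers. In mouse oocytes KMT2B lays down broad domains of H3K4 trimethylation over untranscribed chromatin, and SETD1B is required for normal oogenesis.

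The libraries held between 8582493 and 12972366 mapped reads, and 1 read was worth 0.0771 to 0.117 RPM. Reads within the transcripts of the table made up 83.6% to 86.8% of the mapped reads in the cKO and 90.1% to 90.4% in the WT, without overlap, and the part of this difference in the comparisons of RPM below was not tested beyond the rescaling given with them. The 11 oocyte markers in the table summed to between 10997 and 16312 RPM in the cKO and between 15455 and 20865 RPM in the WT. Of the 11, 10 had a log2 fold change below 0, where the median of all transcripts tested was 0.12. Past the threshold (an adjusted p below 0.05 and over 2-fold) were 0 of them, beside 5.71% of all transcripts tested. The egg coat gene Zp3 was lower in every cKO library than in any WT library (limma adjusted p = 0.433), as were 7.14% of all transcripts tested. Of 15 granulosa and cumulus cell markers in the table, 7 were tested and 0 were past the threshold, the summed level was 123 to 292 RPM in the cKO and 94.5 to 276 RPM in the WT (77.9 to 95.9 RPM and, without overlap, 51.5 to 71.5 RPM when Serpine2, the most abundant of them, was left out after its values were seen), and the defining markers Amh and Foxl2 were at 0 reads in every WT library and at no more than 2 in any cKO library. Of the 7 tested members of that list, 5 had a log2 fold change above 0, while Serpine2 (-0.44) and Kitl (-0.083) were below it. Inha was at 7.03, 11.4, 13.2 and 0.583 RPM in the cKO and 0.810, 4.32 and 0 RPM in the WT (log2 fold change 1.70, limma adjusted p = 0.225), and Nr5a2 (limma adjusted p = 0.281) was above every WT library in every cKO library, where 20.3% of all transcripts tested had genotypes apart in either direction. The stromal marker Dcn (cKO 6.47 ± 0.920 RPM, SD, n = 4, WT 1.87 ± 1.12 RPM, SD, n = 3) and the macrophage marker Cd68 (8.91 ± 3.44 and 2.72 ± 0.885 RPM) were above every WT library in every cKO library and past the threshold. Each was the 1 tested gene of its list, of 5 stromal and 4 blood and immune markers in the table. The stromal sum (6.53 to 7.99 RPM in the cKO and 1.85 to 3.27 RPM in the WT) was mostly Dcn. Among the others, Col3a1 (cKO mean 0, WT mean 0.216 RPM), Cyp17a1 (0 and 0.0540) and Col1a1 (0.279 and 0.301) were lower in the cKO, and Pdgfra (0.485 and 0.0270) higher. The blood and immune sum (4.61 to 13.0 and 2.16 to 3.74 RPM) was Cd68 alone, since Lyz2, Hba-a1 and Hbb-bs had 0 reads in every library. The part of other cells in the results below was not tested. In deviations from the genotype means, cKO replicate 4 and WT replicate 3 departed from their groups in the same direction, and the values of the members without both are given beside their results.

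The targeted gene was examined first. Setd1b (chromosome 5, 123142193 to 123168620, plus strand, GRCm38) encodes the enzyme that Gdf9-Cre was used to remove. It was at 8.31, 16.7, 12.8 and 2.68 RPM in cKO replicates 1 to 4, which corresponds to 84, 203, 147 and 23 reads. The WT replicates 1 to 3 had 17.7, 16.3 and 8.61 RPM, from 218, 212 and 92 reads. The genotypes overlapped: cKO replicates 2 and 3 lay within the WT range, and WT replicates 2 and 3 within the cKO range. The log2 fold change, cKO minus WT, was -0.61 (SE 0.49, limma with Benjamini-Hochberg adjustment over all transcripts tested, adjusted p = 0.533), and an exact permutation test (35 arrangements) gave a one-sided p of 0.171. The 95% interval of the fold on the log2(RPM + 1) scale ran from 0.309 to 1.39, which spans both a large loss and an increase. Without cKO replicate 4 the log2 fold change was -0.15, and without that library and WT replicate 3 together it was -0.45. The row counts the whole transcript and the position of the floxed segment is not given in the sources used here, so that the row cannot check the genotype labels.

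The antisense row at this locus held almost as many reads. Gm26745 (minus strand, 123047373 to 123230871) covered the full length of the Setd1b row and lay at 8.27 to 12.9 RPM in the cKO and 7.95 to 11.3 RPM in the WT. Its mean over the 7 libraries was 88.2% of that of Setd1b. The log2 fold change of Gm26745 was 0.15 (limma adjusted p = 0.797, SE 0.26). In cKO replicate 4, where Setd1b was at 2.68 RPM, Gm26745 was at 8.27 RPM. The annotated exons of Gm26745 (1874 bases in 2 exons) shared 0 bases with those of Setd1b. The exons of the oocyte transcripts themselves are not in the table and the use of strand in counting is not stated, so that reads of the 2 rows may not be fully separate.

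**Figure D1:**
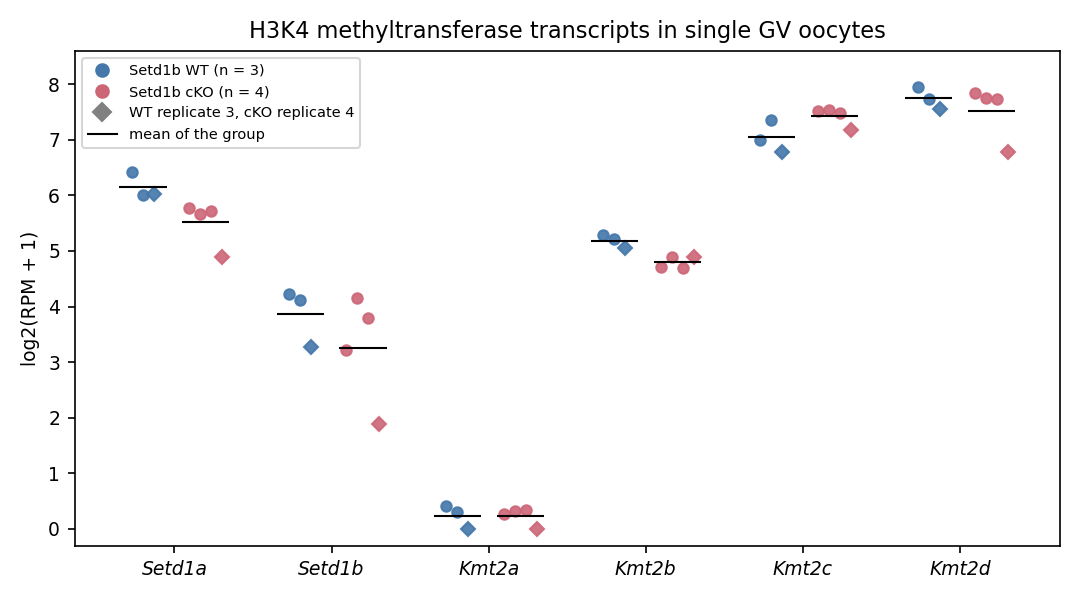
Level of the 6 methyltransferase transcripts in each library, as log2(RPM + 1) on the vertical axis, with WT libraries in blue (n = 3), cKO libraries in red (n = 4) and a line at the mean of each group. Diamonds are WT replicate 3 and cKO replicate 4, and cKO replicate 4 is the lowest cKO library for every gene but Kmt2b, while Kmt2a lies near 0 in all 7 libraries.

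Kmt2a was the one member with almost no reads. KMT2A is the trithorax relative of KMT2B and controls Hox genes in somatic tissues. Its row (chromosome 9, 44803355 to 44881274, minus strand) covered the gene to within 0.022 kb, and it held 2, 3, 3 and 0 reads in cKO replicates 1 to 4 and 4, 3 and 0 reads in WT replicates 1 to 3. A transcript with 0 reads could have had up to 3, a limit for counting error only, and 6 of the 7 libraries were at or under that floor. Kmt2a therefore did not enter the test, no fold change is given, and a difference between genotypes was not detectable at this depth.

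Since Kmt2a was near 0 and Kmt2c was among the most abundant members, their annotated promoters are set side by side. The windows run from 250 bases before to 50 bases after the RefSeq gene start on GRCm38.p6, read 5′ to 3′ on the strand of the gene, with every CpG dinucleotide (the letters CG, which read the same on both strands) in capitals. The Kmt2a window is chr9:44881240-44881539 and the Kmt2c window is chr5:25498734-25499033.
Kmt2a: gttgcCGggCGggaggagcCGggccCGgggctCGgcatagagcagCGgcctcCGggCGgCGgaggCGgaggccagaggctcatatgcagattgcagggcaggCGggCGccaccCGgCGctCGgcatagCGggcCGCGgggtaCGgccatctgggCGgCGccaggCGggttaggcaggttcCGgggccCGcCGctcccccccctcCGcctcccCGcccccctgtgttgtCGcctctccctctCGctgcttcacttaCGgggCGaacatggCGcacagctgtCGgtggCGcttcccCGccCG
Kmt2c: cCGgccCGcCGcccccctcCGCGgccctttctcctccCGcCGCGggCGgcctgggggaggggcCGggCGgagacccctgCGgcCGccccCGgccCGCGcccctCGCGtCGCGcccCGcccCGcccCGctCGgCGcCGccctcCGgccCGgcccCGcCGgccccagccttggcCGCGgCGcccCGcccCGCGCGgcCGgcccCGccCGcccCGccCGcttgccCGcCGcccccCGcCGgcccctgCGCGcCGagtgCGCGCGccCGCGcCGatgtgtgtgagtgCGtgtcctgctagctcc
The Kmt2a window held 36 CpG, as many as or more than all but a small share of promoters: 6.23% of 32851 windows of this length had at least 36. The Kmt2c window held 56, reached by 0.195% of windows, and the windows of Setd1a and Kmt2d held 35 and 27. No window was available for Setd1b or Kmt2b. The median window held 7. By this count the window of Kmt2a was close to that of Setd1a and above that of Kmt2d. The deposited Kmt2c row began 0.928 kb upstream of the annotated gene, so that the printed window lies inside it. The Kmt2a row began at 44881274, so that most of the Kmt2a window lies upstream of that row.

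The levels of the members were compared per length, as RPM per kb of the longest coding transcript annotated in GENCODE M21. In the WT, Setd1a was at 13.1, 9.79 and 9.92 RPM per kb in replicates 1 to 3, and Kmt2d at 12.5, 10.7 and 9.40. Kmt2c was at 8.42, 10.9 and 7.23 RPM per kb. These 3 genes overlapped in their ranges, and their order could not be separated from the spread between oocytes. Kmt2b lay below them at 4.48, 4.25 and 3.82 RPM per kb, and Setd1b below Kmt2b at 1.99, 1.85 and 0.972, without overlap between neighbours. The mean of Kmt2b was 2.61 times that of Setd1b, whereas Kmt2a was at 0.0112 ± 0.0101 RPM per kb (SD, n = 3). Among 13667 tested transcripts with a known length, Setd1a stood at the 67.6th percentile of the WT mean level per kb, Kmt2b at the 48.7th and Setd1b at the 29.1st. The rows of Setd1a and Kmt2b also span Hsd3b7 and Zbtb32 on the same strand, so that reads of these neighbours may raise both levels. The part of such reads was not tested. By the row values Setd1b, the member whose loss was studied, was the least abundant of the 5 detected transcripts.

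The order at the top differed between libraries. Kmt2c was above Kmt2d and Kmt2d above Setd1a in all 4 cKO libraries, at 12.2, 12.3, 11.9 and 9.64 RPM per kb for Kmt2c and 8.28, 7.63, 7.99 and 4.42 RPM per kb for Setd1a. WT replicate 2 had the same order, and WT replicates 1 and 3 had Setd1a first and Kmt2c last of the 3. The places of Kmt2b, Setd1b and Kmt2a were the same in all 7 libraries.

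**Figure D2:**
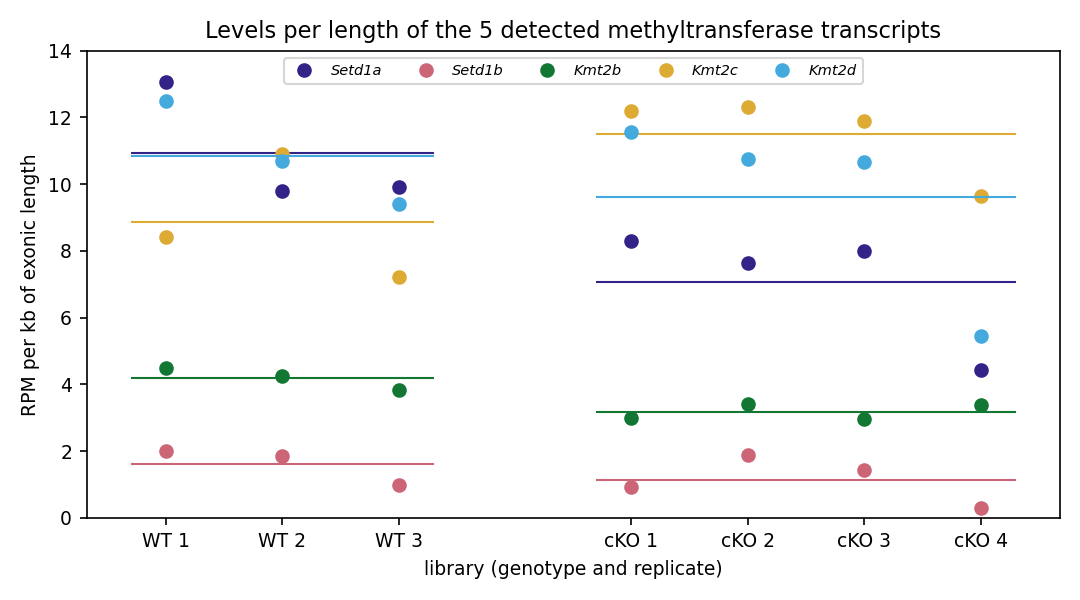
RPM per kb of exonic length (vertical axis) of the 5 detected transcripts in each WT and cKO library (horizontal axis), with a line at the group mean. Kmt2c (yellow) is on top in every cKO library, Setd1a (dark blue) is the highest in WT replicates 1 and 3, and Kmt2b (green) and Setd1b (red) keep places 4 and 5 in every library.

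Whether loss of SETD1B was accompanied by a change in the other enzymes was asked with the fit over all transcripts. Past the threshold, an adjusted p below 0.05 together with more than 2-fold change, were 0 of the 5 members tested, beside 5.71% of all transcripts tested (683 higher and 355 lower, but 458 and 531 with each library centred on its median gene, and 172 and 117 without WT replicate 2). With voom on recovered reads there were also 0. At an unadjusted p under 0.05 there was 1 member, Setd1a, where 21.7% of all transcripts tested had such a p. The median log2 fold change of the 5 members was -0.38, and that of all transcripts tested was 0.12. All log2 fold changes were taken on log2(RPM + 1), which understates those of low transcripts. For 2 of the 5 members, Setd1a and Kmt2b, the ranges of cKO and WT were fully apart, as was so in either direction for 20.3% of all transcripts tested. Of the 5, 4 had a fold change below 0 and 1, Kmt2c, above it.

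Setd1a, the closest relative of Setd1b, had a fold change similar to that of Setd1b but with less spread. Its row (chromosome 7, 127776601 to 127803805, plus strand) was at 53.7, 49.5, 51.8 and 28.7 RPM in cKO replicates 1 to 4. The WT replicates 1 to 3 had 84.7, 63.5 and 64.4 RPM. Every cKO library lay below every WT library, which was so for 7.14% of all transcripts tested. The log2 fold change was -0.64 (limma adjusted p = 0.180, SE 0.26, exact permutation p = 0.0286, two-sided and the smallest that 4 against 3 libraries can give). The 95% interval of the fold ran from 0.429 to 0.956. Without cKO replicate 4 the log2 fold change was -0.44 (limma adjusted p = 0.232), and without that library and WT replicate 3 it was -0.50 (0.151). The row ran 3.68 kb past the annotated end of Setd1a and over the whole of Hsd3b7, a gene of bile acid synthesis on the same strand, so that reads of Hsd3b7 may be counted in it.

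Kmt2b, the enzyme of the broad oocyte domains, had a small and even difference. Its row (chromosome 7, 30568594 to 30602896, minus strand) was at 25.3, 28.8, 25.0 and 28.5 RPM in the cKO libraries. In the WT libraries it was at 38.0, 36.0 and 32.4 RPM. Again every cKO library was below every WT library, and cKO replicate 4 did not stand apart from the other cKO libraries here. The cKO mean was 26.9 ± 2.04 RPM (SD, n = 4) and the WT mean 35.5 ± 2.84 RPM (SD, n = 3), which was -0.38 as a log2 fold change (limma adjusted p = 0.305, SE 0.20, exact permutation p = 0.0286). The 95% interval of the fold ran from 0.563 to 1.04. The row began 14.2 kb upstream of the annotated gene and spanned Zbtb32, a zinc finger gene on the same strand, so that reads of Zbtb32 may be counted in it. Without cKO replicate 4 and WT replicate 3 the log2 fold change was -0.47. The short row on the opposite strand within that extension held at most 4 reads in any library.

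Kmt2c was the single member with a positive value. KMT2C belongs with KMT2D in the complexes that contain KDM6A. Its row (chromosome 5, 25271613 to 25499711, minus strand) was at 182, 184, 178 and 144 RPM in the cKO and at 126, 163 and 108 RPM in the WT. Of the 4 cKO libraries, 3 were above every WT library, and replicate 4 lay below WT replicate 2. The log2 fold change was 0.39 (limma adjusted p = 0.331, SE 0.21, exact permutation p = 0.0857), with a 95% interval of the fold from 0.942 to 1.82, and was 0.26 without WT replicate 3 and 0.34 without that library and cKO replicate 4. The one overlapping row, 4831440E17Rik on the opposite strand, held at most 1 read in any library.

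Kmt2d, the main enhancer monomethyltransferase with Kmt2c, had the highest mean RPM of the 6. Its row (chromosome 15, 98831669 to 98872370, minus strand) was at 229, 213 and 211 RPM in cKO replicates 1 to 3 and at 108 RPM in replicate 4. The WT libraries were at 247, 212 and 186 RPM, so that cKO replicates 1 to 3 lay within the WT range and replicate 4 below it. The log2 fold change was -0.22 (limma adjusted p = 0.716, SE 0.28, exact permutation p = 0.743) and turned to 0.027 without cKO replicate 4, while without that library and WT replicate 3 it was -0.072. The 95% interval of the fold ran from 0.558 to 1.31. The overlapping row at its start, 5730414N17Rik on the opposite strand, was at 0.231 to 0.824 RPM.

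**Figure D3:**
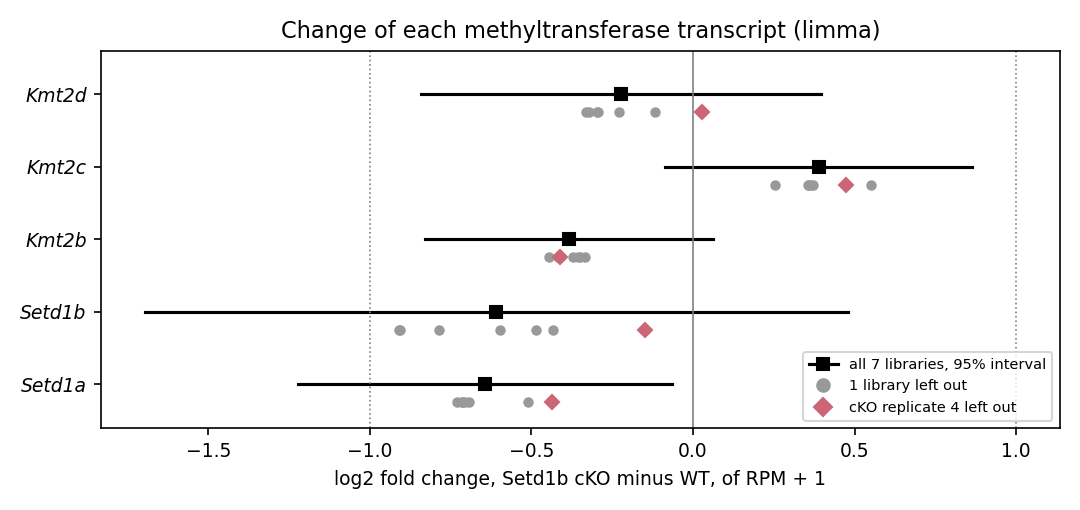
Log2 fold change of RPM + 1, cKO minus WT (horizontal axis), of the 5 tested members, with squares and bars for the limma estimate and its 95% interval over all 7 libraries, grey points for fits with 1 library left out and red diamonds for the fit without cKO replicate 4. Dotted lines mark 2-fold; the interval of Setd1b (-1.70 to 0.48) is the widest, and the diamond of Kmt2d lies at 0.027.

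The 95% intervals of Setd1a (down to -1.22) and Setd1b (down to -1.70) reached past a 2-fold decrease, and a p that misses the threshold does not show that a transcript was unaltered. Centring every library on the median of its genes took the median of all transcripts from 0.12 to -0.033 and gave log2 fold changes of -0.80 for Setd1a (limma adjusted p = 0.0884), -0.54 for Kmt2b (0.157), 0.23 for Kmt2c (0.616) and -0.38 for Kmt2d (0.482). Scaling instead by the reads within transcripts gave -0.57 for Setd1a (0.226), which then had an unadjusted p above 0.05, -0.31 for Kmt2b (0.404), 0.47 for Kmt2c (0.222) and -0.14 for Kmt2d (0.810). The directions of all 5 members were the same under each scaling tried.

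Ratios between members hardly depend on how a library is scaled (a pseudocount of 1 RPM aside), and they were compared over all 15 pairs. The log2 ratio of Setd1a to Kmt2c was -1.74, -1.88, -1.76 and -2.29 in cKO replicates 1 to 4 and -0.57, -1.35 and -0.74 in WT replicates 1 to 3. All cKO libraries were below all WT libraries, by 1.03 between the means (exact permutation p = 0.0286, two-sided, and 0.0857 after Benjamini-Hochberg adjustment over the 15 pairs). The difference was -0.84 without cKO replicate 4 and WT replicate 3. With each library left out in turn it stayed between -1.26 and -0.87.

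Within the enhancer pair, the log2 ratio of Kmt2c to Kmt2d was -0.33, -0.21, -0.25 and 0.41 in the cKO and -0.97, -0.37 and -0.78 in the WT. The means differed by 0.61, again without overlap (exact permutation p = 0.0286, adjusted p = 0.0857), and by 0.41 without cKO replicate 4 and WT replicate 3. The ratio of Setd1a to Kmt2d was lower by 0.42 (adjusted p = 0.0857) and, unlike the levels of both genes, did not set cKO replicate 4 apart: it was -2.07, -2.09, -2.01 and -1.88 in the cKO. Between Setd1a and Setd1b the ratio differed by -0.034 (exact permutation p = 0.943), with a wide spread (SD 0.66 in the cKO, n = 4) and between -0.29 and 0.21 with 1 library left out, so that its direction is not set. None of the 15 pairs was past an adjusted p of 0.05. The permutation p of 0.0286 is the smallest these libraries can give, so that a pair could pass only if most of the 15 shared it. The adjusted p therefore cannot decide whether a ratio differed. At an unadjusted p under 0.05 there were 5 pairs, of which 2 involve Kmt2a, whose value rests on the pseudocount. How often the ratios of other transcripts are apart between the genotypes was not tested.

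The make-up of the family restates these ratios, since both are computed from the same levels in the same libraries. Kmt2c and Kmt2d together held between 72.6% and 82.5% of the family's reads in every library. The share of Kmt2c was 36.5%, 37.4%, 37.1% and 46.2% in cKO replicates 1 to 4 and 24.5%, 33.2% and 27.1% in WT replicates 1 to 3. Setd1a took 10.8%, 10.0%, 10.8% and 9.18% in the cKO against 16.5%, 12.9% and 16.1% in the WT. Both shares were without overlap (exact permutation p = 0.0286 each, and 0.0857 adjusted over the 6 genes). That p is the smallest these libraries can give, and an adjusted p under 0.05 would need most of the 6 genes to share it. How often shares within other sets of genes are apart was not tested. Of all single transcripts tested, 20.3% had genotypes apart in either direction. Between the genotype means the share of Kmt2c was 11.0 percentage points higher and that of Setd1a differed by -4.97 points, and these were 8.15 and -4.16 points without cKO replicate 4 and WT replicate 3. The share of Kmt2d was 42.0% ± 5.02 over the cKO (SD, n = 4) and 45.9% ± 2.55 over the WT (SD, n = 3), and they were apart by less than the cKO spread, by -3.96 percentage points and by -1.51 points without cKO replicate 4. The shares of 1 library sum to the whole, so that a higher share of 1 gene lowers those of the others. The summed level of the 6 genes was 446 ± 89.5 RPM in the cKO and 468 ± 60.5 RPM in the WT, and was lowest in cKO replicate 4 (312 RPM).

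The levels also differed between libraries of 1 genotype. Relative to its own mean over the 7 libraries, cKO replicate 4 was lower by 1.64 for Setd1b, 0.90 for Setd1a and 0.85 for Kmt2d on the log2 scale, but only by 0.08 for Kmt2c and for Kmt2b. The members have long mRNAs, and the 714 tested transcripts with at least 8 kb of exonic length were set beside them, a class that takes in Setd1b, Kmt2b, Kmt2c and Kmt2d but not Setd1a (6.49 kb). Their median deviation was -0.16 in cKO replicate 4, -0.17 in WT replicate 3, and between -0.04 and 0.20 in the other 5 libraries. Over all tested transcripts with a known length the median deviation was -0.074 in cKO replicate 4 and -0.12 in WT replicate 3. When a trend with length was removed from each library, the log2 fold changes of the 5 members lay between -0.70 (Setd1a) and 0.38 (Kmt2c).

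**Figure D4:**
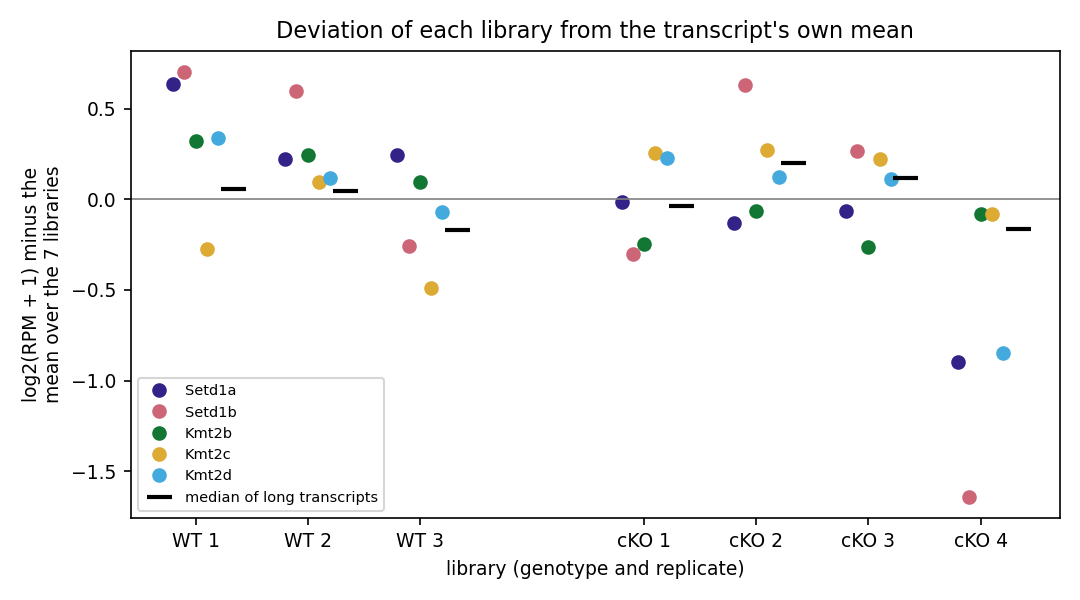
Deviation of log2(RPM + 1) from the transcript's mean over the 7 libraries (vertical axis) for the 5 detected members in each library (horizontal axis), with a black dash for the median of 714 long transcripts. In cKO replicate 4, Setd1b (red), Setd1a (dark blue) and Kmt2d (light blue) lie between -1.64 and -0.85, below the dash at -0.16, while Kmt2b (green) and Kmt2c (yellow) lie at -0.08.

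The extent of the rows was also compared with the annotated genes. The rows of Setd1b and Kmt2a matched their genes closely, while those of Setd1a and Kmt2b ran into a neighbour on the same strand. In all, 4 further rows of the table overlapped the 6 loci, 1 each at Setd1b, Kmt2b, Kmt2c and Kmt2d, all on the opposite strand. Only Gm26745 passed the filter. No further row overlapped Setd1a or Kmt2a.

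**Figure D5:**
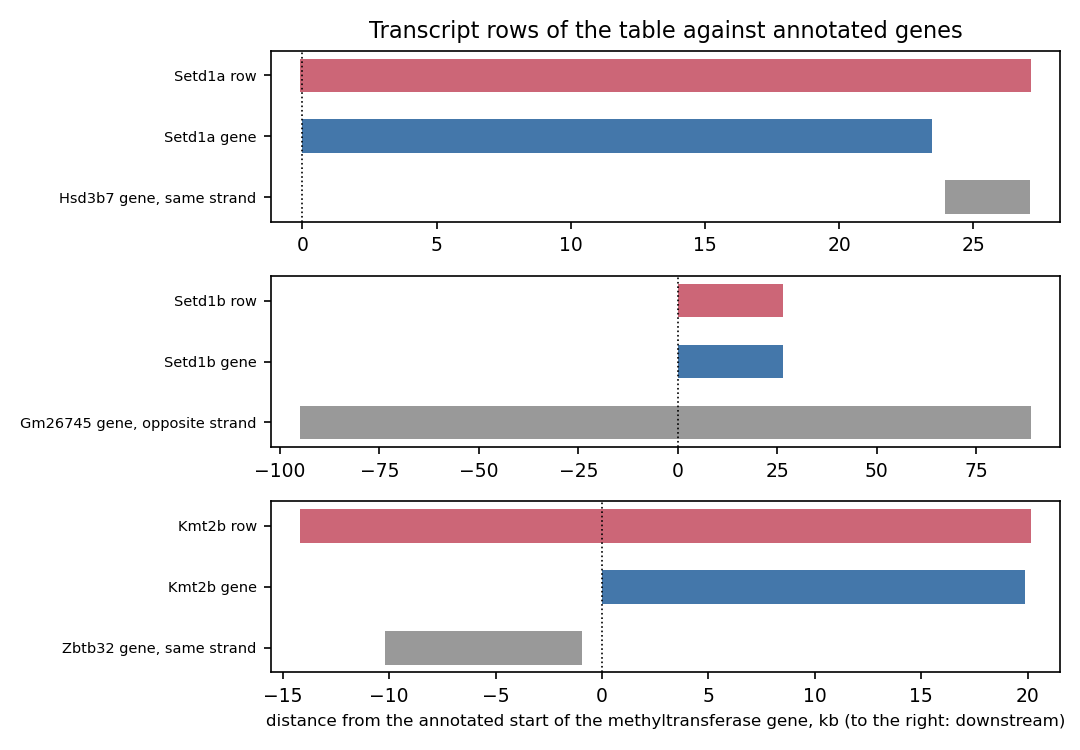
Span of the transcript row (red), the annotated gene (blue) and a neighbouring or antisense gene (grey) at Setd1a, Setd1b and Kmt2b, as distance in kb from the annotated gene start with downstream to the right. The Setd1a row covers Hsd3b7 downstream, the Setd1b row lies wholly within Gm26745, and the Kmt2b row reaches 14.2 kb upstream across Zbtb32.

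Transcripts with the most similar pattern were sought among 8246 named transcripts with a mean of at least 8 RPM, by the root mean square difference of log2(RPM + 1) after centring each on its mean over the 7 libraries. The nearest to Setd1b were Clcn5 (0.12), Bcap29 (0.14) and Rbbp9 (0.15). Clcn5 was at 23.5, 38.5, 29.8 and 8.16 RPM in the cKO and 43.1, 40.9 and 26.6 RPM in the WT, with the same low cKO replicate 4. The nearest to Setd1a were Wdr70 (0.09) and Dnajc18 (0.13), to Kmt2b Lpgat1 (0.06) and Zfp322a (0.06), to Kmt2c Metap1 (0.07) and Eml4 (0.08), and to Kmt2d Arid2 (0.09). The likeness, over 7 libraries and so many candidates, is a description only.

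The partners of the enzymes were read from the same fit. Of 18 COMPASS subunits and associated proteins, 17 were tested, 1 was past the threshold and higher, and 0 were lower, beside 3.76% higher and 1.95% lower among all transcripts tested. The list's median log2 fold change was 0.09. The 1 gene was Ash2l, the core subunit that stimulates catalysis. It was at 39.4, 44.9, 49.1 and 33.8 RPM in the cKO and 13.9, 19.3 and 15.5 RPM in the WT, which was 1.31 as a log2 fold change (limma adjusted p = 0.0101, SE 0.23), and 1.21 without WT replicate 1 (adjusted p = 0.0537). For Cxxc1, Wdr5, Rbbp5 and Dpy30, which were picked for their place in the complexes after their values were seen, the log2 fold change was 0.094, 0.0087, -0.096 and 0.085. Psip1, the chromatin-binding partner of the menin complexes, had a value of -0.69 (limma adjusted p = 0.164) and Bod1l, a SETD1A partner at stalled forks, of -0.67 (0.0625). Hcfc2 was at 0.69 (0.245).

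Of 5 H3K4 demethylases, 0 passed the threshold, beside 5.71% of all transcripts tested, and their log2 fold changes ran from -0.47 (Kdm5c) to 0.44 (Kdm5b). Kdm1b, the demethylase needed for imprints in oocytes, had a cKO mean of 142 ± 41.0 RPM (SD, n = 4) and a WT mean of 116 ± 31.3 RPM (SD, n = 3), which was 0.28 as a log2 fold change (limma adjusted p = 0.637). Of 5 further SET domain enzymes tested that have been reported to act on H3K4, 1 passed and was higher, beside 3.76% higher among all transcripts tested. Smyd3 was at 66.6, 54.7, 43.8 and 51.8 RPM in the cKO and 19.6, 31.0 and 26.6 RPM in the WT, which was 1.06 as a log2 fold change (limma adjusted p = 0.0275, SE 0.24). It passed the threshold in 1 of 7 fits with a library left out, with adjusted p from 0.0255 to 0.128. Setmar, Ash1l and Prdm9, the last a meiotic H3K4 enzyme, had log2 fold changes of 0.61, 0.26 and 0.25 with limma adjusted p of 0.191, 0.636 and 0.782. The other tested gene of the list, Smyd2, added after its values were seen, was at -0.22 (0.774).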

How the data were processed

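Transcription was measured in 7 single GV oocytes, 4 Setd1b cKO and 3 Setd1b WT. The authors amplified cDNA with the SMARTer kit and sequenced 75 bp single reads. They mapped reads with Hisat to GRCm38, kept mappings with MAPQ of at least 20 and quantified oocyte transcripts with merged isoforms in SeqMonk. The deposited values are log2 RPM, with 0.9 read in place of 0. The values came out as whole reads (100% of those above that floor, within 0.01 read), from which RPM was computed.

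The members and lists were chosen with earlier results of these data known. Rows were named by span in GENCODE M21 (overlap of at least 0.5 of the union) or by the table's gene on the same strand. Values of log2(RPM + 1) were fitted with lmFit and eBayes with a trend in limma 3.58.1 under R 4.3.3, with Benjamini-Hochberg adjustment over 18179 transcripts. On simulated reads the fit called 198 of 200 genes changed 4-fold, and 0 genes where none was changed. These reads had the same spread setting for every gene and no library differences besides depth, unlike the real libraries. Exact permutation tests (35 arrangements, Python 3.11.15) served for single values. Named list genes were those past the threshold and otherwise with the largest change, to at most 4 per list. Smyd2 and 4 subunits were named outside this rule. One transcript similar in pattern to a member is not reported here. No library was left out of the main comparison. Alternatives were other pseudocounts, filters, scalings, variance models, a length trend, a replicate block, voom and left-out libraries.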

Additional observations from a re-analysis of the deposited data

Results flagged for a closer look

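In the 4 cKO libraries, 9 of 52 values examined had 1 library set off from the rest. By chance about 1 in 20 independent values would be. The figure given for each is the gap to the nearest library over the range of the group. In all 9 the library was cKO replicate 4, and the values are not independent, since they share that library. The WT, with 3 libraries, was not examined.

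Replicate 4 was low in Setd1a (28.7 RPM against 49.5 to 53.7, gap 0.831), Kmt2c (144 RPM against 178 to 184, gap 0.840) and Kmt2d (108 RPM against 211 to 229, gap 0.853), and in the summed level of the 6 genes (312 RPM against 479 to 499, gap 0.894). It was high in the share of Kmt2c (46.2% against 36.5% to 37.4%, gap 0.911) and in the log2 ratio of Kmt2c to Kmt2d (0.41 against -0.33 to -0.21, gap 0.840). It was also low in Setmar (19.5 RPM against 31.4 to 33.0, gap 0.883). Wdr70 and Arid2 had been chosen for a pattern over the 7 libraries like that of Setd1a and Kmt2d, so that their low values in replicate 4 follow from that choice: Wdr70 (21.9 RPM against 35.7 to 38.3, gap 0.844) and Arid2 (26.7 RPM against 50.3 to 53.7, gap 0.873). Setd1b in replicate 4 (2.68 RPM) was the lowest as well, but the other cKO libraries were spread too widely for the gap to pass, and Kmt2b in replicate 4 was near the top of the cKO range. The cause was not tested.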

How the results depend on the processing

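No member was past the threshold under any of 21 alternatives. The log2 fold change ran from -0.80 to -0.44 for Setd1a, from -0.91 to -0.15 for Setd1b, from -0.54 to -0.31 for Kmt2b and from 0.23 to 0.55 for Kmt2c. For Kmt2d it ran from -0.38 to 0.027. With each library left out it ran from -0.33 to 0.027, above 0 without cKO replicate 4. With a replicate block, in which that library has no partner, it was also 0.027, with 924 genes higher and 479 lower over all transcripts. Libraries of the same number did not deviate together throughout (correlations of 0.19, 0.29 and -0.13 across genes), so that they share only a number, and not every library correlated best with its own. The genes higher in the cKO were 315 with a pseudocount of 5 RPM, 174 with no filter (129 lower), 428 with quantile normalisation (442 lower), 443 with voom (328 lower) and 353 with the length trend removed (379 lower), a fit over 13667 transcripts. Centring on the median gene gave 458 higher and 531 lower, and scaling by the reads within transcripts 836 higher and 310 lower. With each library left out, 172 to 857 genes were higher and 117 to 435 lower, fewest without WT replicate 2 and most without cKO replicate 4. Per kb of gene span, 2 of 6 genes kept their place in the order of levels, and per kb of coding length all 6 did. Summing the same-strand rows of a gene changed nothing, since no member had more than 1. The shares hold no pseudocount to vary. In permutation tests with a library left out, the smallest p possible rises, so those tests say nothing of stability. Fewer than 5 reads in each library limit what can be said of Kmt2a.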

Other observations

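Across the 18179 transcripts tested, the deviations of cKO replicate 4 and WT replicate 3 from their genotype means had a Pearson correlation of 0.61, the highest of the 12 pairs of a cKO and a WT library. The next highest was that of cKO replicate 2 with WT replicate 1 (0.43), and the lowest that of cKO replicate 2 with WT replicate 3 (-0.55). These are correlations across genes, which are not independent replicates. Of the members, Setd1b, Kmt2a (0 reads), Kmt2c and Kmt2d were lowest in both of these libraries within their own genotype, and Kmt2b was lowest in WT replicate 3 but not in cKO replicate 4.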
